A study of Rattus norvegicus with 18 samples.

Results

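The genes described here encode the core of the basement membrane made by rat extraembryonic endoderm: the laminin chains Lama1, Lama5, Lamb1, Lamb2 and Lamc1, the type IV collagen chains Col4a1 and Col4a2, the nidogens Nid1 and Nid2, and the proteoglycan perlecan (Hspg2). They were taken by symbol from a fixed list, which was drawn up with earlier results of these data known. Of the 10 listed genes, 9 were found by symbol among the 28695 genes of each library. Hspg2 was found only through a clone-based name that RefSeq lists as an older name of it, so that row may cover only part of the gene. It is described beside the 9 and is not counted with them. All 10 passed the filter on low counts.

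RNA was measured in cells derived from blastocysts of the WKY rat strain, labelled female and described as extraembryonic endoderm precursor cells (XENP, or pXEN), between passages 32 and 51. There were 6 groups of 3 libraries. Normal cells were kept in routine culture. Vacuolated cells, which carry large vacuoles, were obtained with 0.5 µM CHIR99021, an inhibitor of GSK3 that activates Wnt signalling, or with 14% BCS, which the labels do not spell out. A further group of CHIR99021-vacuolated cells was sorted before RNA was taken, by a criterion that the labels do not give. Vesicles came from CHIR99021 cultures, 1 group grown in serum and 1 grown serum-free. The protocol describes 1 vesicle medium, N2B27 with murine LIF at 10 ng/ml and CHIR99021 at 3 µM, with no feeder cells, and does not say what else differed in the cultures with serum. The labels state that the 3 libraries of a group were prepared independently, but not whether they came from separate derivations, so p-values measure the spread between these libraries.

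Laminins are cross-shaped trimers of 1 alpha, 1 beta and 1 gamma chain. The trimer of Lama1, Lamb1 and Lamc1 is the laminin of the early embryo, and alpha and beta chains such as Lama5 and Lamb2 take their place in many later tissues. Col4a1 and Col4a2 wind into the heterotrimer that builds the collagen network, and nidogens and perlecan link the laminin and collagen networks. In the rodent yolk sac, parietal endoderm deposits these proteins in very large amounts in Reichert's membrane, while visceral endoderm rests on a thin sheet of them.

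Col4a1 and Col4a2 lie head to head and are read in opposite directions from a shared promoter, so their windows show how much sequence the pair has in common. In the RefSeq table of build GRCr8 (250 bases before to 50 bases after each start site), 8 of the 10 genes had a window. The windows of Col4a1 (chr16:84885347-84885646, plus strand) and Col4a2 (chr16:84885471-84885770, minus strand) shared 176 bases, from 84885471 to 84885646, and their start sites were 77 bases apart. Capitals mark the shared stretch, which reads as its own reverse complement in the partner's window and held 2 GC boxes and 1 CCAAT box.
Col4a1: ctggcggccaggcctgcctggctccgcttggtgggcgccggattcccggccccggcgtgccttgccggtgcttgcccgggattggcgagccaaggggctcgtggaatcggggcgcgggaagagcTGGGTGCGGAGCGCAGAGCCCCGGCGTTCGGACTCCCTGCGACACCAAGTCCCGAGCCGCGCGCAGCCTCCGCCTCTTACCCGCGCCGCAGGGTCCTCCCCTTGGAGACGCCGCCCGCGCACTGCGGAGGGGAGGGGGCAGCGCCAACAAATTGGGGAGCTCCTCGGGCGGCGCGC
Col4a2: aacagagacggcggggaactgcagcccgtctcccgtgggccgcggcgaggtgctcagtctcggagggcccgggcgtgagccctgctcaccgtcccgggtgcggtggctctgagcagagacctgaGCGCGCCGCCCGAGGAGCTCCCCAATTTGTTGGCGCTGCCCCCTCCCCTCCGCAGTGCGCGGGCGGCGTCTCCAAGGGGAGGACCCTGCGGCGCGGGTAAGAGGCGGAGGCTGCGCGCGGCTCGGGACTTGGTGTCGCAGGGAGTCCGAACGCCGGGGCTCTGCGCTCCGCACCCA

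The windows of the alpha chains Lama1 (chr9:115139298-115139597, plus strand) and Lama5 (chr3:187695925-187696224, minus strand) are shown because the levels of this pair moved differently in vesicles. Capitals mark GATA motifs (AGATAN or TGATAN, with A or G as the last base) and GC boxes (GGGCGG). Both strands were searched, and overlapping matches form 1 run.
Lama1: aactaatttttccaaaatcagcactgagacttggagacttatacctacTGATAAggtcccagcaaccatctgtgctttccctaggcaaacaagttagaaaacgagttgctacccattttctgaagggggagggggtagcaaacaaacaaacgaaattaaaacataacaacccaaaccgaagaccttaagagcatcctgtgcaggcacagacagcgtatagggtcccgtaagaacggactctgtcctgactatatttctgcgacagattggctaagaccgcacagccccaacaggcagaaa
Lama5: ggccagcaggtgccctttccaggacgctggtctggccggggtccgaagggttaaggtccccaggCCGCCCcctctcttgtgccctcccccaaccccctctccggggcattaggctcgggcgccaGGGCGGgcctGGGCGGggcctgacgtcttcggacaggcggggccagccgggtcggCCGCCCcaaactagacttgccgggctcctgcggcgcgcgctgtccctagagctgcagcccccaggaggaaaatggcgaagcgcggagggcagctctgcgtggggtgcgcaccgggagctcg
The Lama1 window had 1 GATA motif, no GC box and a GC content of 45.7%. The Lama5 window had 4 GC boxes, no GATA motif and a GC content of 73.0%. Among the 8 windows, only that of Lama1 held a GATA motif and 7 held a GC box. Over all 33469 windows of the table, 30.3% held a GATA motif and 33.1% a GC box, and the median GC content was 51.7%. The CCAAT box (CCAAT) was in 4 of the 8 windows and in 37.5% of all windows. The Col4a1 and Col4a2 windows overlap, so the 2 GC boxes and 1 CCAAT box of their shared 176 bases count for both. Matches to ACAAT, a core letter string of SOX sites, and to the TCF/LEF strings CTTTGAT and CTTTGAA were in 33.7% and 8.73% of all windows and in none of the 8. These are letter matches only, and no binding was measured.

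Libraries held 4050722 to 12074939 counts. A pair of clone-named genes took 37.6 to 61.1% of them. Mitochondrial genes took 2.88 to 4.32% of the remainder in normal and unsorted vacuolated cells and 6.76 to 9.43% in sorted cells and vesicles, so this share moved with every comparison between those 2 sets; its part in the results was not tested. The endoderm label was borne out by Gata4, Gata6 and Sox17, transcription factors that specify primitive endoderm, at 410.5 ± 45.4, 80.1 ± 3.95 and 519 ± 81.3 CPM (the usual library-size scaling of counts, adjusted by TMM; mean ± SD, n = 3) in normal cells. Among markers of other cells, the 10 fibroblast or feeder genes summed to at most 15.9 CPM in any library, with Postn, Dcn and Twist2 at 0 in all, and the pluripotency genes (5 of 6 listed were present) to at most 5.44 CPM. The 4 smooth muscle genes, all with counts in every group, summed to 4.39 to 10.9 CPM in normal cells. Their sum was 11.9 to 24.3 CPM with CHIR99021, 19.2 to 39.2 CPM with BCS and 9.55 to 13.5 CPM in sorted cells. In vesicles it was 8.53 to 10.7 CPM with serum and 1.58 to 3.14 CPM without. The 7 trophoblast genes summed to 7.87 to 10.05 CPM in normal cells, 21.99 to 32.4 CPM in serum vesicles and 19.1 to 28.2 CPM in serum-free vesicles. Of these, Cdx2 was at 0 in normal cells and at 24.96 ± 5.79 and 22.2 ± 4.44 CPM in serum and serum-free vesicles (SD, n = 3). Eomes, the only other trophoblast gene expressed enough to test, went the other way. It was lower than in normal cells in both kinds of vesicle (adjusted p under 0.05, edgeR test below). Elf5 and Tfap2c were at 0 in serum vesicles, and Hand1, Gcm1 and Prl3d1 were at 0 in all groups. The sums of the smooth muscle and trophoblast lists differed between groups, and the part of these lists in the results was not tested.

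In normal cells the 9 genes took 1.05 ± 0.0943% of the counts outside the dominating pair. The share was 1.10 ± 0.176% in CHIR99021-vacuolated, 1.81 ± 0.285% in BCS-vacuolated and 1.75 ± 0.391% in sorted cells. It was 0.878 ± 0.117% in serum vesicles and 0.835 ± 0.1002% in serum-free vesicles. Each library of BCS-vacuolated and sorted cells, at 1.36% or above, exceeded each normal library, of which the highest was 1.11%. Fewer cells of a type and less RNA per cell cannot be told apart in such bulk samples.

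Members were tested against all 11503 expressed genes with edgeR's quasi-likelihood test and Benjamini-Hochberg adjustment, and a gene is called changed at an adjusted p under 0.05. The 5 comparisons with normal cells share the normal libraries. In CHIR99021-vacuolated cells 2 of the 9 differed, Lama5 upward and Nid1 downward, where 7.62% of all genes were called (4.49% higher, 3.13% lower). BCS-vacuolated cells had 7 of the 9 higher and none lower, against a background of 20.7% called (11.2% higher, 9.51% lower). Sorted cells had 8 of the 9 higher and none lower, against 25.9% (14.4% higher, 11.5% lower). In serum vesicles 2 rose and 3 fell, where 60.4% of all genes were called (31.7% higher, 28.8% lower). In serum-free vesicles 2 rose and 4 fell, against 57.7% (30.2% higher, 27.5% lower). The shares in vesicles, 5 and 6 of 9, were near the background, and those in BCS-vacuolated and sorted cells were above it. The median log2 fold change of the 9 was 0.24 in CHIR99021-vacuolated, 0.76 in BCS-vacuolated, 0.78 in sorted cells, -0.39 in serum and -0.43 in serum-free vesicles. Over all genes tested the medians lay between -0.0038 and 0.064.

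**Figure D1:**
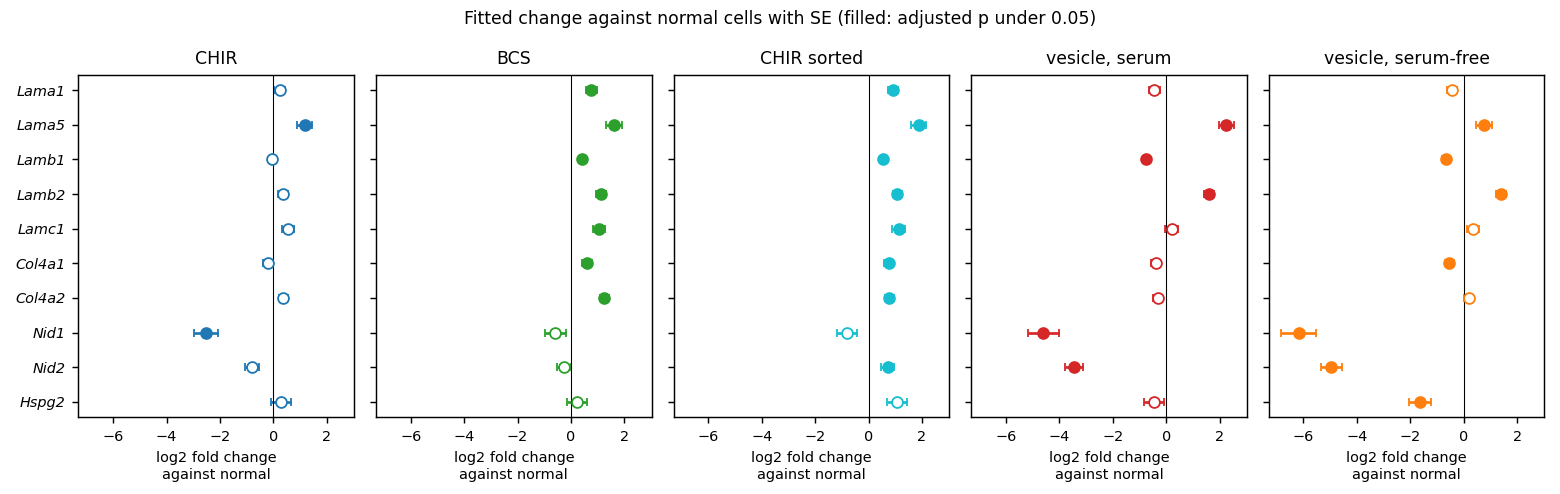
Log2 fold change (x axis) of each member against normal cells in the 5 other groups, with the standard error as bars and filled points where the adjusted p was under 0.05. Lama5 lies to the right of 0 in all 5 groups, and Nid1 and Nid2 lie far to the left in both kinds of vesicle.

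Lama1, the alpha chain of the early embryonic laminin, was read at 1432, 1001 and 1273 CPM in the 3 normal libraries. It reached 1440.1, 1228 and 1693 in CHIR99021-vacuolated, 2248, 2499.7 and 1513 in BCS-vacuolated and 1836, 2919 and 2261 CPM in sorted cells. All BCS-vacuolated and sorted libraries lay above all normal ones, while the unsorted CHIR99021 libraries overlapped them. The rise was 1.69-fold with BCS (adjusted p = 0.01) and 1.89-fold in sorted cells (0.00184, edgeR). Without normal replicate 2 or BCS replicate 1 the first p was 0.0535 or 0.0602. Vesicles had 1033, 683 and 1012 CPM with serum and 992, 877 and 876 CPM without it. These levels were 1.36-fold and 1.35-fold under the normal mean and did not pass the test (adjusted p = 0.0594 and 0.0669). Leaving out normal replicate 2, the lowest normal library, brought both past it (0.0198 and 0.0281), as leaving out serum vesicle replicate 1 did for the first (0.0447).

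Lama5, the alpha chain of many epithelial basement membranes, was the member that was called higher than normal in all 5 groups. Normal libraries had 12.02, 10.4 and 12.1 CPM. CHIR99021-vacuolated cells had 22.9, 24.1 and 30.5, BCS-vacuolated cells 40.2, 31.4 and 34.96 and sorted cells 28.9, 47.5 and 50.02 CPM. None of these 9 libraries overlapped the normal range. The mean was highest in serum vesicles, at 52.6, 38.3 and 76.1 CPM, and serum-free vesicles had 19.96, 27.4 and 11.8 CPM, of which the last lay inside the normal range. Folds over normal were 2.24 with CHIR99021 (adjusted p = 0.0181), 3.07 with BCS (0.000731), 3.66 in sorted cells (0.000113), 4.79 in serum vesicles (2.06e-06) and 1.71 in serum-free vesicles (0.0342, all edgeR). The CHIR99021 call was lost without any 1 of the 3 normal libraries or CHIR99021 replicate 3, with adjusted p between 0.0551 and 0.0826. The serum-free call was lost without any 1 normal library or without serum-free replicate 1 or 2, and without replicate 2 the log2 change was 0.43 (adjusted p = 0.241).

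Lamb1, the beta chain of the same embryonic trimer, moved in opposite directions in vacuolated cells and vesicles. Its normal level was 1055, 938 and 1105 CPM. BCS-vacuolated cells had 1498, 1398 and 1251 and sorted cells 1277, 1799.6 and 1450.0 CPM, all above the normal range, while CHIR99021-vacuolated cells had 987, 894 and 1116 CPM, within or just beside it. Serum vesicles had 626, 603 and 630.2 and serum-free vesicles 697, 586 and 669 CPM, all below every other library. Lamb1 rose 1.34-fold with BCS (adjusted p = 0.023) and 1.46-fold in sorted cells (0.00297). It was 1.67-fold lower in serum vesicles (3.15e-05) and 1.59-fold lower in serum-free vesicles (0.000115, edgeR). The BCS call was lost without normal replicate 1 or 2 or BCS replicate 1 (adjusted p = 0.0564, 0.0943 and 0.117).

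Lamb2, the beta chain of the kidney glomerular filter and the neuromuscular junction, had its lowest mean in normal cells, with 17.2, 20.3 and 20.1 CPM. It was 25.9, 19.5 and 27.9 in CHIR99021-vacuolated cells, which overlapped the normal range, 44.6, 42.8 and 37.6 with BCS and 29.96, 50.3 and 41.9 CPM in sorted cells. The means of vesicles were higher still, with 63.1, 46.1 and 65.2 CPM with serum and 52.5, 46.9 and 53.9 CPM without. Against normal cells Lamb2 was 2.16-fold higher with BCS (adjusted p = 0.000118), 2.12-fold in sorted cells (9.99e-05), 3.01-fold in serum vesicles (5.71e-08) and 2.65-fold in serum-free vesicles (4.29e-07, edgeR). All 4 calls held under every alternative run. The CHIR99021 difference of 1.27-fold did not pass (adjusted p = 0.297).

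Lamc1, the gamma chain common to most laminins, was read at 371, 215 and 347 CPM in normal cells. All 9 libraries of vacuolated cells lay above that range, at 444, 399 and 516 with CHIR99021, 756, 673 and 507 with BCS and 512, 881 and 645 CPM after sorting. The rise was 2.07-fold with BCS (adjusted p = 0.00461) and 2.19-fold in sorted cells (0.00212, edgeR). With CHIR99021 alone it was 1.46-fold and did not pass (adjusted p = 0.195). Vesicles, at 291 to 425 CPM with serum and 333 to 514 CPM without, overlapped normal cells, and neither group passed (0.466 and 0.217).

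The ratio of 2 chains was taken within each library, as the difference of their log2 CPM. The log2 ratio of Lama5 to Lama1 was -6.70 ± 0.15 (SD, n = 3) in normal cells and -5.80 ± 0.15, -5.84 ± 0.44 and -5.80 ± 0.27 in CHIR99021-vacuolated, BCS-vacuolated and sorted cells. It reached -4.05 ± 0.29 in serum vesicles and -5.60 ± 0.60 in serum-free vesicles. The ratio of Lamb2 to Lamb1 was -5.73 ± 0.20 in normal cells and -5.35 ± 0.14, -5.04 ± 0.02 and -5.22 ± 0.16 in CHIR99021-vacuolated, BCS-vacuolated and sorted cells. It was -3.42 ± 0.24 in serum vesicles and -3.66 ± 0.05 in serum-free vesicles. Against normal cells, vesicles thus had a 4.93-fold and a 4.18-fold larger share of Lamb2 relative to Lamb1. No vesicle library overlapped a library of the other 4 groups. The ratio of Lama1 to Lamc1 was 2.01 ± 0.18 in normal cells and 1.68 ± 0.05, 1.68 ± 0.18 and 1.79 ± 0.06 in the vacuolated groups in the same order. It was 1.33 ± 0.15 in serum vesicles and 1.23 ± 0.25 in serum-free vesicles. Each vesicle group differed from normal cells in these 3 ratios with an exact two-sided permutation p of 0.1, which is the smallest that 3 against 3 libraries allow. The vacuolated groups moved the same way by smaller amounts, also with a p of 0.1 apart from Lama1 to Lamc1 with BCS (0.2). Because 45 ratio comparisons were made, none could pass an adjusted threshold. The ratios show unequal change of the members of a pair, not which member was constant.

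**Figure D2:**
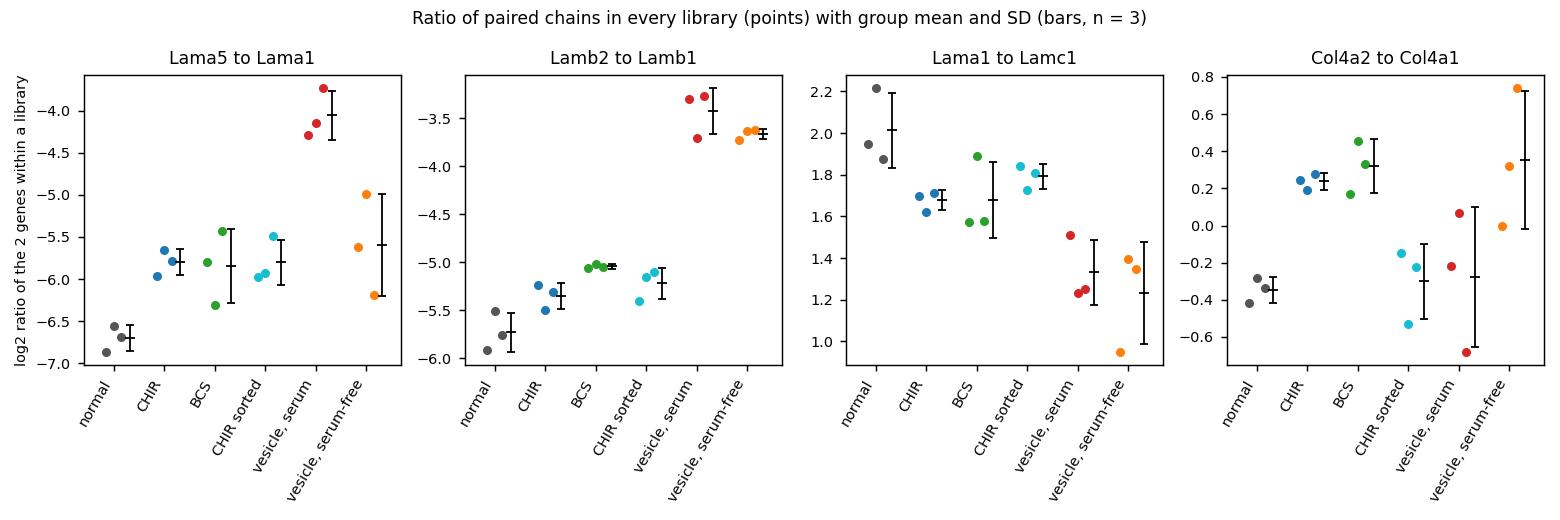
Log2 ratio of 2 chains, as the difference of their log2 CPM (y axis) in every library (points), with the mean and SD of each group of 3 (bars). Lama5 to Lama1 is highest in serum vesicles at -4.05 ± 0.29, Lamb2 to Lamb1 is high in both kinds of vesicle, and Col4a2 to Col4a1 is above 0 in all CHIR99021- and BCS-vacuolated libraries.

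Col4a1 and Col4a2, the pair of chains of the collagen network, share a promoter but did not keep a fixed ratio. Col4a1 was at 1504, 1300.2 and 1512 CPM in normal cells, 1159, 1100.2 and 1457 with CHIR99021, 2771, 1875 and 1898 with BCS and 1884, 2955 and 2433 CPM after sorting. The BCS-vacuolated and sorted libraries were all above the normal range and the CHIR99021 libraries within or below it. Col4a2 was at 1124, 1069.6 and 1199 CPM in normal cells, 1376, 1254 and 1765 with CHIR99021, 3122, 2575 and 2388 with BCS and 1700.0, 2043 and 2087 CPM after sorting, and all 9 vacuolated libraries exceeded the normal ones. In BCS-vacuolated cells Col4a2 rose 2.38-fold (log2 1.25 ± 0.16 SE, adjusted p = 6.75e-06) and Col4a1 1.52-fold (0.0167). In sorted cells the rise was 1.72-fold for Col4a2 (0.000977) and 1.69-fold for Col4a1 (0.00261, edgeR). With CHIR99021 alone neither passed (Col4a2 1.30-fold higher, adjusted p = 0.177; Col4a1 1.16-fold lower, adjusted p = 0.534). The Col4a1 call with BCS was lost without normal replicate 2 (adjusted p = 0.0687) or BCS replicate 1, the highest library (0.174, log2 0.39).

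In vesicles Col4a1 was at 1131, 908 and 1260.0 CPM with serum and 1125, 843 and 1004 CPM without, all below the normal range. The serum-free decrease was 1.45-fold (adjusted p = 0.0107; 0.0626 without serum-free replicate 2). The serum decrease of 1.31-fold did not pass (adjusted p = 0.0575), but did without normal replicate 2 (0.0373) or serum replicate 3 (0.0325). Col4a2 was at 974, 952 and 786 CPM in serum vesicles, below the normal range, and at 1125, 1055 and 1679 CPM in serum-free vesicles, on both sides of it. Neither passed against normal cells (0.087 and 0.335). The log2 ratio of Col4a2 to Col4a1 was -0.35 ± 0.07 in normal cells, -0.30 ± 0.20 in sorted cells and -0.28 ± 0.38 in serum vesicles. It was 0.24 ± 0.04 with CHIR99021, 0.32 ± 0.14 with BCS and 0.36 ± 0.37 in serum-free vesicles. These last 3 groups did not overlap normal cells (exact permutation p = 0.1 each), and serum vesicle and serum-free vesicle libraries overlapped each other.

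Nid1, a nidogen that bridges laminin and type IV collagen, showed the largest decreases among the members. Counts were 61, 67 and 60 in the 3 normal libraries and 13, 9 and 16 in CHIR99021-vacuolated cells. They were 28, 111 and 35 with BCS and 71, 55 and 58 in sorted cells. Serum vesicles had 2, 6 and 0 counts and serum-free vesicles 0, 0 and 3, so several vesicle libraries were at 0, where a count of 0 allows up to 3. As CPM the normal libraries had 10.9, 12.9 and 9.08 and the CHIR99021 libraries 1.82, 1.55 and 2.19 CPM, with no overlap. Nid1 was 5.81-fold lower with CHIR99021 (log2 -2.54 ± 0.45 SE, adjusted p = 0.000563) and 24.2-fold lower in serum vesicles (2.36e-07, edgeR). Serum replicate 2 held 6 of the 8 serum counts, and without it the fitted log2 change of Nid1 was -5.78 in place of -4.60 (adjusted p = 6.8e-07). In serum-free vesicles, with 3 counts in all, the ratio of normal to vesicle levels was 79.8, with a 95% interval of 26.9 to 390.2 that covers counting error only (adjusted p = 2.64e-08). Sorted cells, at 8.18, 6.15 and 4.58 CPM, lay below the normal range. They were 1.75-fold lower and did not pass (0.126), but did with the 2 groups fitted alone (0.0111). BCS-vacuolated cells, at 4.75, 12.2 and 4.53 CPM, overlapped normal cells and did not pass (0.301). BCS replicate 2, at 111 counts, stood above the other 2 BCS libraries, and without it the BCS decrease was log2 -1.23 (adjusted p = 0.0295).

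Nid2, the second nidogen with the same binding partners, had 72, 89 and 118 counts in normal cells, 58, 42 and 86 with CHIR99021, 84, 115 and 102 with BCS and 137, 341 and 316 in sorted cells. Serum vesicles had 9, 8 and 9 and serum-free vesicles 4, 4 and 3 counts. Every vesicle library was below every other library. On the opposite strand, which was not used, Nid2 had 8, 0 and 5 counts in serum vesicles and 1, 5 and 1 in serum-free vesicles, above its own strand in 1 library, against 1, 3 and 0 in normal cells. Nid2 fell 10.9-fold in serum vesicles (adjusted p = 6.54e-09) and 30.9-fold in serum-free vesicles (1.45e-10, edgeR), and both calls, like those of Nid1 against normal cells, held under every alternative. With counts that ignore strand the log2 decreases of Nid2 were smaller, -2.90 in place of -3.44 in serum vesicles and -4.29 in place of -4.95 in serum-free vesicles. The CHIR99021 decrease of 1.76-fold, with no overlap between 8.13, 7.24 and 11.8 and 12.9, 17.1 and 17.9 CPM in normal cells, did not pass (adjusted p = 0.0597; 0.0425 without CHIR99021 replicate 3). Sorted cells were 1.64-fold higher (0.0336), but their libraries overlapped normal ones and this call was lost in 9 alternatives, among them the omission of any 1 normal library or of sorted replicate 2 or 3. Without sorted replicate 2 it was log2 0.36 (adjusted p = 0.352). The endothelial markers, 5 of 6 listed in the files, were also lower in vesicles. They summed to 58.3 to 60.7 CPM in normal cells and 11.3 to 24.9 CPM in vesicles, with Emcn at 0 in all groups. Of the 3 tested, Tek and Cdh5 were called lower in both kinds of vesicle, where 60.4 and 57.7% of all genes were called. The sum was below the normal range in the vacuolated groups too, at 42.1 to 53.3 CPM with CHIR99021 and 38.8 to 57.9 CPM with BCS. In sorted cells, where Nid2 was not lower, it was 39.2 to 43.1 CPM. The part of these markers in the result was not tested.

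**Figure D3:**
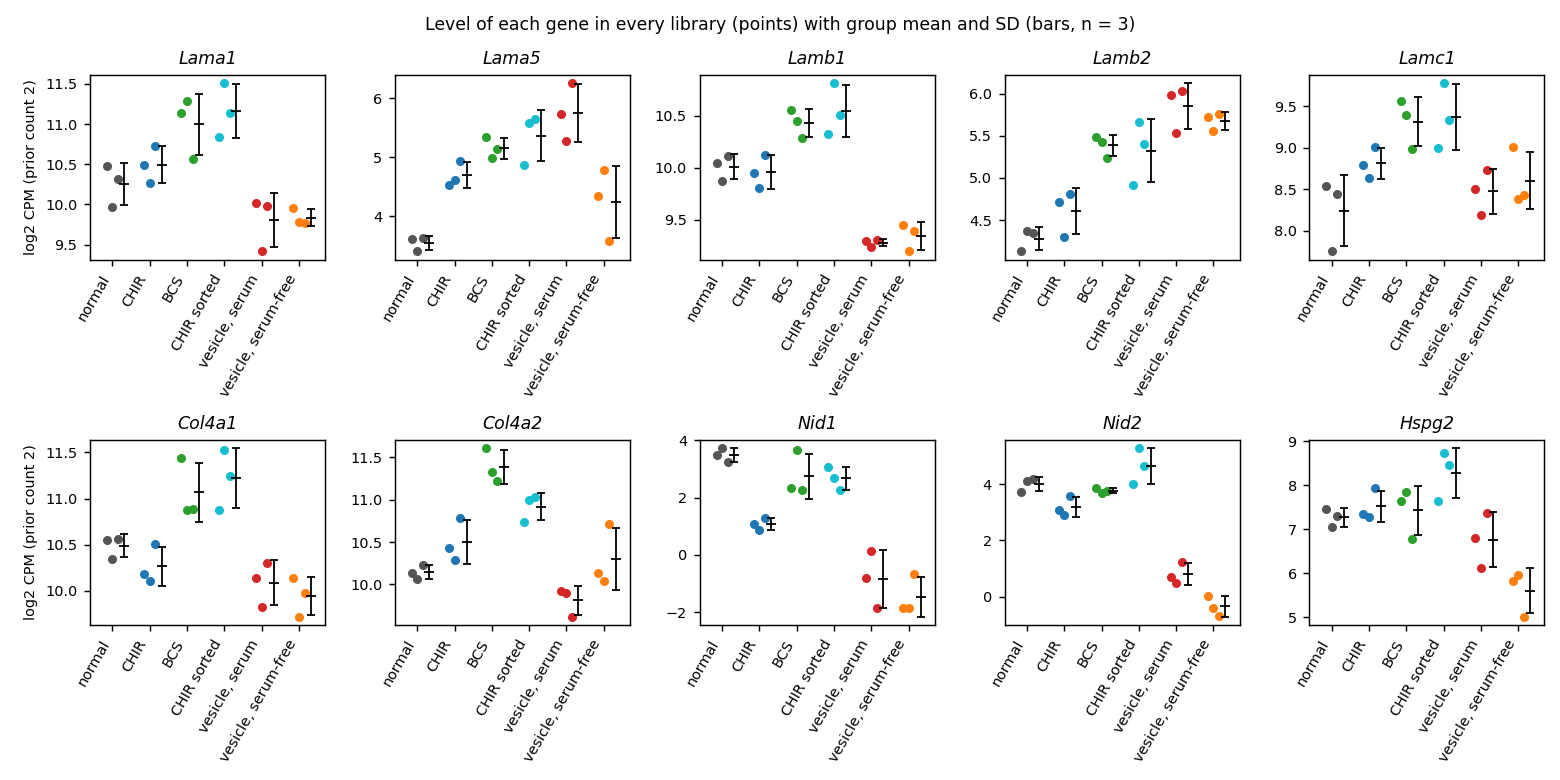
Level of each member (y axis, log2 CPM with a prior count of 2) in each of the 18 libraries (points), with the mean and SD of each group of 3 (bars) and 1 panel per gene. Nid1 and Nid2 are lowest in both kinds of vesicle, with Nid1 at 0 counts in 1 serum and 2 serum-free libraries, and the mean of Lama5 is highest in serum vesicles.

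Hspg2, the core protein of the heparan sulfate proteoglycan perlecan, was read at 176, 131 and 158 CPM in normal cells under its older row name. It had 201, 423 and 352 CPM in sorted cells, 111, 69.3 and 164 in serum vesicles and 56.5, 61.9 and 31.9 CPM in serum-free vesicles. The serum-free libraries were below all others. Hspg2 fell 3.11-fold in serum-free vesicles (adjusted p = 0.00306, edgeR). The 2.10-fold higher level of sorted cells did not pass (0.0544), though it did without sorted replicate 1 (0.0253). Levels of 163, 155 and 243 with CHIR99021 and 201, 229 and 109.5 CPM with BCS overlapped the normal range (0.754 and 0.739), as did serum vesicles (0.335).

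Serum-free vesicles were then compared with serum vesicles. Of the 9 genes, Col4a2 was higher and Lama5 lower, where 24.4% of all genes were called (12.9% higher, 11.5% lower). Lama5 was 2.80-fold lower without serum (log2 -1.49 ± 0.27 SE, adjusted p = 0.000778, edgeR), with no overlap between the groups and the same call under every alternative. Col4a2 was 1.42-fold higher (0.0242), a call lost without serum replicate 3 (0.11) or serum-free replicate 3 (0.236). Nid2 was 2.84-fold lower on 11 against 26 counts and was at the threshold (0.0501; 0.0479 without serum-free replicate 1). Hspg2 was 2.28-fold lower (0.0439), a call lost without any 1 of 5 of the 6 vesicle libraries (p up to 0.193, without serum replicate 3). Lama1, Lamb1, Lamb2, Lamc1 and Col4a1 differed by at most 1.13-fold and did not pass. The means of Nid1, from 8 and 3 counts, were too low to compare at this depth.

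Sorted and unsorted CHIR99021-vacuolated cells differed in 6 of the 9 genes, all higher after sorting, against a background of 11.7% called (6.69% higher, 5.05% lower). Nid1 was 3.33-fold and Nid2 2.89-fold higher in sorted cells (adjusted p = 0.0125 and 0.000269, edgeR). Col4a1 was 1.96-fold (0.000684), Lamb2 1.66-fold (0.00734), Lama1 1.61-fold (0.0277) and Lamb1 1.51-fold higher (0.00352). All 6 had sorted libraries entirely above the unsorted ones. Without CHIR99021 replicate 2 only 3 were called, with adjusted p of 0.0647 for Nid1, 0.141 for Lama1 and 0.0661 for Lamb2. The Nid1 call was also lost without CHIR99021 replicate 1 or sorted replicate 1 (0.0565 and 0.0572). Lama1 was lost too without CHIR99021 replicate 1 (0.0891) or sorted replicate 2 or 3 (0.172 and 0.0584), and Lamb2 without sorted replicate 2 (0.0737). Mitochondrial genes held 2.88 to 4.08% of the counts outside the dominating pair in unsorted and 6.76 to 8.91% in sorted cells; what part this had was not tested.

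The 2 vacuolating treatments also differed. CHIR99021-vacuolated cells had 5 of the 9 genes lower than BCS-vacuolated cells and none higher, against 13.2% called (5.83% higher, 7.4% lower). Nid1 was 3.88-fold lower (adjusted p = 0.0047), Col4a2 1.84-fold (0.000686), Col4a1 1.76-fold (0.00295), Lamb2 1.70-fold (0.00505) and Lamb1 1.38-fold (0.0166, edgeR). Without BCS replicate 1 the calls of Lamb1 and Col4a1 were lost (0.119 and 0.0508), leaving 3. Lamb1 was also lost without CHIR99021 replicate 1 or 2 (0.068 and 0.111). Lama1 was not called (0.0862), but was without BCS replicate 3 (0.0234). The sum of the parietal endoderm markers, 9 of 9 with counts, was also lower with CHIR99021 than with BCS. It was 2148.5 to 2324 CPM with CHIR99021 and 2692 to 3306 CPM with BCS, against 2070.0 to 2103 CPM in normal cells. In sorted cells it was 1989 to 2327 CPM and overlapped the normal range, although 8 of the 9 genes were higher there than in normal cells. Sparc made up much of the sum, at 2082 ± 262 CPM with BCS and 1181 ± 6.92 CPM in normal cells (SD, n = 3). Single markers went both ways: Sparc, Thbd and Plat were called lower with CHIR99021 than with BCS, and Fst and Krt19 higher. The part of these markers in the result was not tested.

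Serum vesicles differed from CHIR99021-vacuolated cells in 7 of the 9 genes, where 58% of all genes were called (30.3% higher, 27.6% lower). Lama5 (2.13-fold) and Lamb2 (2.36-fold) were higher in vesicles. Nid2 (6.20-fold), Nid1 (4.17-fold), Col4a2 (1.62-fold), Lamb1 (1.61-fold) and Lama1 (1.60-fold) were lower. The adjusted p of these ranged from 9.67e-07 for Nid2 to 0.012 for Nid1 (edgeR), and Nid1 was lost without serum replicate 1 (0.0531). The same markers of parietal endoderm summed to 902 to 1074 CPM in serum vesicles and 1425 to 1591 CPM in serum-free vesicles. Against normal cells, where 60.4 and 57.7% of all genes were called, 3 of these 9 (Fst, Krt19 and Plat) were higher and 5 lower in each. The 10 visceral endoderm genes summed to 1763 to 2532 and 2955 to 3903 CPM in these vesicles. In normal cells they summed to 1801 to 1877 CPM, with Afp, Ttr and Apoa1 at 0. Of the 7 tested, Ihh, Apoe and Apob were higher and Amn and Cubn lower in both kinds of vesicle, and Dab2 was lower with serum. The part of both lists in the results was not tested.

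The other proteins that assemble, modify or bind this matrix were followed through 6 lists in the 5 comparisons with normal cells. The counts of called genes below stand against shares of all genes called of 7.62% with CHIR99021, 20.7% with BCS, 25.9% in sorted cells, 60.4% in serum vesicles and 57.7% in serum-free vesicles. The first list held 13 other laminin, netrin and type IV collagen chains, of which 4 were expressed enough to test and 3 are described. Ntn4, a laminin-related netrin that interrupts laminin networks, was 12.4-fold higher in serum vesicles (adjusted p = 3.39e-06) and 7.73-fold in serum-free vesicles (7.23e-05, edgeR). In sorted cells Ntn4 was lower, with 3 counts in all against 12 in normal cells, a ratio of normal to sorted levels of 6.97 with a 95% interval of 1.88 to 38.5 that covers counting error only (adjusted p = 0.0348, edgeR), a call lost in 6 alternatives, among them the omission of normal replicate 1 or 3 or of any 1 sorted library (up to 0.135). Lamb3, a beta chain of epithelial laminin, was 1.82-fold higher in sorted cells (adjusted p = 0.0434, edgeR), a call lost in 8 alternatives, among them the omission of any 1 library of the pair of groups (up to 0.147), and was not called in the other comparisons with normal cells. Lama4, the alpha chain of vessel walls, was 3.72-fold lower in serum vesicles (adjusted p = 0.00763) and 9.43-fold lower in serum-free vesicles (0.000209, edgeR). Its levels were low, at 0.528 ± 0.492 and 0.196 ± 0.242 CPM in these vesicles and 2.24 ± 0.0785 CPM in normal cells (SD, n = 3). Over all runs the log2 change in serum-free vesicles ranged from -4.64 to -2.85. The other collagen chains Col4a5 and Col4a6 had at most 18 counts in any group. None of these 3 was called with CHIR99021 or BCS.

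Of 12 tested other basement membrane proteins among 18 listed, 3 rose with CHIR99021, 6 rose and 1 fell with BCS, 6 rose in sorted cells, 5 rose and 2 fell in serum vesicles, and 5 rose and 3 fell in serum-free vesicles. Sparc, a collagen-binding glycoprotein, rose 1.76-fold with BCS (adjusted p = 2.78e-05) and fell 2.09-fold in serum vesicles (4.16e-08, edgeR). It is also on the list of parietal endoderm markers. Fbln1, a fibulin that binds laminin and nidogen, was higher in all 5 groups, from 1.49-fold with CHIR99021 (adjusted p = 0.0236, edgeR; lost without any 1 normal library or CHIR99021 replicate 3, up to 0.139) to 2.997-fold in serum vesicles (5.68e-09). Frem2, of the epithelial Fras complex, was 39.3-fold and 26.04-fold higher in the vesicles, from 9 counts in the 3 normal libraries (0.482 ± 0.457 CPM, SD, n = 3). These folds move with single normal libraries: without normal replicate 2 or 3 the log2 change of Frem2 was 4.76 or 6.14 in serum vesicles and 4.19 or 5.55 in serum-free vesicles. Col18a1, a heparan sulfate collagen, was 3.48-fold higher in sorted cells (0.00217). Their median log2 change was 0.64, 0.75, 1.64, 0.56 and 0.12 in the order CHIR99021, BCS, sorted, serum and serum-free, where all genes had medians of -0.0038 to 0.064.

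Collagen folding and secretion genes (17 tested of 20) rose in 2 and fell in 2 cases with CHIR99021, 7 and 2 with BCS, 8 and 1 in sorted cells, 6 and 8 in serum vesicles, and 8 and 8 in serum-free vesicles. Of all genes 60.4% were called in serum vesicles and 57.7% in serum-free vesicles. Plod1 and Plod3, lysyl hydroxylases, led the rises of this list in vacuolated cells and were also called higher in both kinds of vesicle. In serum-free vesicles Plod3 was 3.19-fold higher (adjusted p = 5.99e-09, edgeR). Plod1 was 3.39-fold higher with CHIR99021 (adjusted p = 1.95e-06), 4.35-fold with BCS (7.56e-08) and 3.47-fold in sorted cells (4.6e-07, edgeR). Serpinh1, the collagen chaperone HSP47, was at 2192 ± 150.1 CPM in normal cells and fell to 442 ± 62.8 CPM in serum vesicles, 4.95-fold (2.22e-12), and to 715 ± 133.1 CPM in serum-free vesicles, 3.06-fold (7.03e-10). P3h2, a prolyl 3-hydroxylase of type IV collagen, fell 5.85-fold and 5.40-fold there, and 1.80-fold with BCS (0.00313). The median log2 change of the 17 was -0.17, 0.20, 0.15, -0.31 and 0.38 in the same order.

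Among 5 tested of 7 cross-linking enzymes, 1 rose and 2 fell with CHIR99021, 2 rose with BCS, 2 rose and 1 fell in sorted cells, and 1 rose and 2 fell in each kind of vesicle. Pxdn, the peroxidase that makes the sulfilimine bonds of type IV collagen, fell 2.43-fold with CHIR99021 (adjusted p = 0.000545), 5.28-fold in serum vesicles (1.6e-08) and 5.48-fold in serum-free vesicles (1.36e-08, edgeR). Loxl2, a lysyl oxidase that cross-links type IV collagen, rose 2.10-fold with CHIR99021, 4.15-fold with BCS and 3.10-fold in sorted cells. In serum vesicles it was 1.68-fold lower (0.0099), a call lost without serum replicate 2 (0.0872). Medians of the 5 enzymes were -0.52, 1.68, -0.36, -0.43 and -1.49 in the same order.

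The 19 listed heparan sulfate genes build or modify the sugar chains of perlecan, and 17 were tested. There were 1 higher and 2 lower with CHIR99021, 2 higher with BCS and 4 higher in sorted cells. Serum vesicles had 6 higher and 3 lower, and serum-free vesicles 5 higher and 2 lower. Ext1, which extends the chain, fell 1.57-fold with CHIR99021 (adjusted p = 0.00485), 5.52-fold in serum vesicles (2.85e-12) and 4.93-fold in serum-free vesicles (6.13e-12, edgeR). Ndst1, which starts sulfation, rose 4.39-fold and 3.83-fold in these vesicles. Sulf2, which removes sulfate, rose 2.86-fold with CHIR99021 and 3.15-fold in sorted cells, and was also called higher in both kinds of vesicle. The corresponding medians were 0.05, -0.07, 0.23, 0.17 and 0.23 in the same order.

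Of the receptors that bind this matrix, 11 of 13 were tested. There were 2 higher and 1 lower with CHIR99021, 6 higher with BCS, 4 higher in sorted cells, and 7 higher and 3 lower in each kind of vesicle, where 7.62, 20.7, 25.9, 60.4 and 57.7% of all genes were called. Itga2, a collagen-binding integrin chain, fell 1.98-fold with CHIR99021 (adjusted p = 0.000636), 9.41-fold in serum vesicles (2.84e-12) and 5.95-fold in serum-free vesicles (4.31e-11, edgeR). The laminin-binding chains Itga6 and Itga3 rose 1.75-fold and 2.17-fold with BCS, and Itga3 3.21-fold in serum-free vesicles. Itga3 was called higher in both kinds of vesicle, whereas Itga6 and Itga7 were called lower in both. Sdc4, a cell-surface syndecan, rose 2.22-fold with BCS, 10.01-fold in serum vesicles and 8.89-fold in serum-free vesicles (4.29e-10). Ddr1, a collagen receptor kinase, rose 3.75-fold in serum vesicles. For the 11 receptors the medians were -0.17, 0.59, 0.38, 0.66 and 0.84 in the same order.

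**Figure D4:**
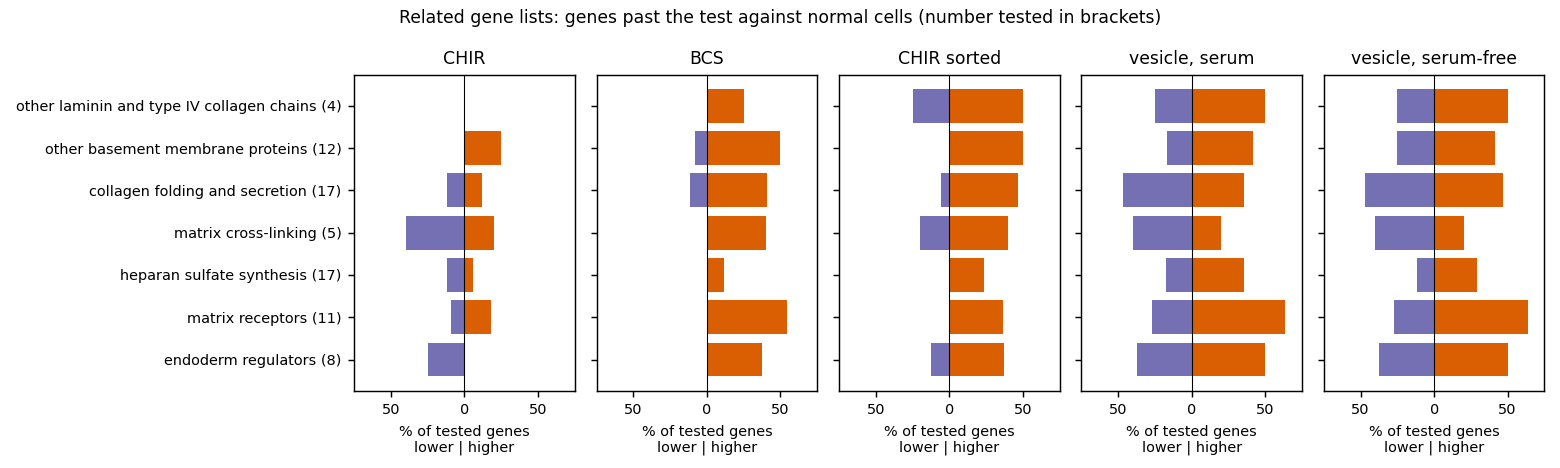
Percentage of the tested genes of each related list (rows, number tested in brackets) called higher (right of 0) or lower (left of 0) than in normal cells, with 1 panel for each of the 5 comparisons. For collagen folding and secretion the bars reach as far to the left as to the right in serum-free vesicles (8 of 17 each way), while with BCS they lie mostly to the right (7 against 2).

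The genes whose log2 CPM followed each member most closely over the 18 libraries were sought among 6989 genes, as a description by Pearson's r. These libraries share the split between vesicles and cultured cells. Lama1 ran closest to Klf5 (0.900), Fn1 (0.895) and Sall4 (0.885), and Lamb1 to Klf5 (0.957), Bdkrb2 (0.953) and Sall4 (0.939). Klf5 and Sall4, transcription factors of the early embryo, stood on both lists, and Fn1, fibronectin, was also near Lamc1, after Men1. For Lama5 these were N4bp1 (0.892), Enc1 (0.889) and Plekha5 (0.888), and for Lamb2 Podxl (0.956), Ltbp1 (0.952) and Por (0.946). Col4a1 was followed most closely by Slc12a9 (0.909), Map1s (0.877) and Smtn (0.867). Col4a2 had Pfkl (0.918), Loxl2 (0.911) and Atp2a2 (0.906), of which Loxl2 is the cross-linking enzyme above. Nid1 was nearest to Tacc3 (0.961), Ptger3 (0.958) and Micall2 (0.957) and Nid2 to Chsy1 (0.963), Rnf10 (0.962) and Rtn4 (0.956). Among the members themselves, Lama1 and Lamb1 had an r of 0.941, Lamb1 and Col4a1 0.926, Nid1 and Nid2 0.886 and Col4a1 and Col4a2 0.766, whereas Lamb1 and Lamb2 had -0.291 and Lama1 and Lama5 0.284.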

How the data were processed

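The deposited files held whole-number counts per gene, once ignoring strand and once for either strand. The authors made them with bcl2fastq, Trimmomatic 0.38 and STAR 2.6.1 against rn6, per the submitters' processing notes. A directional kit was used after removal of ribosomal RNA, per the labels' protocols. The strand holding nearly all counts was used, and the other held 1.73 to 2.93% of them. On that other strand Lama5 and Nid2 had 2.21 and 3.19% of their own counts (at most 16.7 and 125% in a library), and the other members at most 0.326%.

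The analysis used edgeR 4.0.16 in R 4.3.3 (default filter with a minimum count of 10 by group, TMM scaling, a robust quasi-likelihood fit of 1 mean per group to all 18 libraries, 12 residual degrees of freedom). The biological coefficient of variation was 16.1%. Benjamini-Hochberg adjustment ran over the 11503 genes tested, with a threshold of 0.05, in each of 9 comparisons. Levels are CPM scaled by TMM, log2 CPM used a prior count of 2, and an error after a log2 change is its standard error. Levels of different genes were not compared, since transcript lengths were not used here.

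Members, gene lists and comparisons were chosen with earlier results of these data known. All members are named in each comparison. From each list at most 3 genes a comparison are given with a fold, those with the smallest adjusted p among the called. Some other called genes are named by direction only. The search for genes that follow a member took those averaging 3 or more in log2 CPM and left out placeholder symbols. Of the listed genes, Lama3, Lamb4, Mia3, Pecam1 and Zfp42 were not matched, and Crtap was matched by another name. A list gene that the rule names is not reported here. DESeq2 1.42.0, another scaling, no filter, unstranded counts, thinning every library to the lowest depth, other designs and the omission of each library were run as alternatives. On simulated data for CHIR99021-vacuolated against normal cells over 11346 genes, the test called 36% of 50 genes changed 1.5-fold and 88% of 50 changed 2-fold. It called all 50 changed 4-fold, all 50 changed 8-fold and 7 of 11146 unchanged genes. The changed genes were drawn above a set level in normal cells, and the simulated spread followed the fitted trend alone. These shares therefore do not describe genes with few counts or with a larger spread of their own.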

Additional observations from a re-analysis of the deposited data

How the results depend on the processing

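Of 90 pairs of a member (Hspg2 included) and a comparison, 50 were called. Of these 35 kept the call in every alternative, 15 lost it in at least 1 and none reversed, while 22 of the 40 not called were gained in at least 1. The number of the 9 members called moved as follows. For CHIR99021-vacuolated against normal cells it was 2, and 4 with no filter on low counts, 4 with the 2 groups fitted alone and 1 to 2 with 1 library left out. For BCS-vacuolated against normal cells (7) omission gave 4 to 8, with 4 without normal replicate 2 or BCS replicate 1. For serum vesicles against normal cells (5) it was 8 with no filter, 8 with the 2 groups alone and 5 to 7 on omission. Serum-free vesicles against normal cells (6) gave 8 with no filter, 7 with the 2 groups alone and 4 to 6 on omission. Serum-free against serum vesicles (2) gave 3 with no filter, 1 with the 2 groups alone and 1 to 3 with a library left out. Sorted against CHIR99021-vacuolated cells (6) gave 9 with no filter, 9 with the 2 groups alone and 3 to 6 on omission, and CHIR99021- against BCS-vacuolated cells (5) gave 7 with no filter, 8 with the 2 groups alone and 3 to 6 on omission. Replicate numbers were not used to pair the libraries. The deviations of same-numbered libraries from their group means correlated at -0.149 to 0.0951 over the genes tested. For BCS-vacuolated against normal cells each of the 3 libraries still matched its own number best (0.0746, 0.0487 and 0.0376). In no other comparison did all 3. With the replicate number as a block, serum-free against serum vesicles had 3 called in place of 2, where Nid2 had an adjusted p of 0.044, the call of Hspg2 was lost (0.0717), and no other call of a member changed. Log2 changes that turned sign were not called in the main analysis or after the turn. With 1 library left out these ranged from -0.13 to 0.028 for Lamb1 with CHIR99021 against normal cells (0.0056 without normal replicate 3), -0.0036 to 0.47 for Hspg2 with BCS, -0.026 to 0.34 for Lamc1 in serum vesicles and -0.054 to 0.31 for Col4a2 in serum-free vesicles. Between serum-free and serum vesicles Lama1 had -0.16 to 0.11, -0.019 when thinned and -0.024 with the 2 groups alone, and Lamc1 -0.078 to 0.28. Hspg2 between CHIR99021- and BCS-vacuolated cells had -0.20 to 0.28, and -0.032 with passage as covariate. For each of these the cause was not tested. Depth limits the nidogens in vesicles, where Nid1 had 0 to 6 and Nid2 3 to 9 counts a library. Counting Hspg2 as a 10th member, and running the alternatives on the named list genes, were added after the data were seen.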

Other observations

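Endoderm regulators were described with the matrix genes, and all 8 listed were tested. With CHIR99021 none rose and 2 fell, with BCS 3 rose, in sorted cells 3 rose and 1 fell, and in each kind of vesicle 4 rose and 3 fell against normal cells, where 7.62, 20.7, 25.9, 60.4 and 57.7% of all genes were called in these 5 comparisons. The median log2 changes of the 8 were 0.17, 0.24, 0.32, 0.37 and 0.60 with CHIR99021, BCS, sorting, serum and serum-free vesicles. Gata6, which specifies primitive endoderm, went from 80.1 ± 3.95 CPM (SD, n = 3) in normal cells to 49.2 ± 2.61 with CHIR99021, 13.8 ± 3.33 in serum vesicles and 15.8 ± 2.84 CPM in serum-free vesicles, with no overlap between any of these and normal cells. The decreases were 1.63-fold (adjusted p = 0.00204), 5.72-fold (1.98e-12) and 5.04-fold (4.14e-12, edgeR). Gata4, its partner factor, fell 2.64-fold and 2.20-fold in the vesicles, and Hnf4a, a factor of visceral endoderm, rose 4.91-fold and 7.63-fold. Gata4 was also called lower with CHIR99021 and in sorted cells, and Hnf4a higher with BCS. Klf4 rose 3.10-fold in sorted cells (1.6e-07), and Sox7, a factor of parietal endoderm, rose 2.72-fold with BCS (0.000857), and the 2 calls held in every alternative. Klf4 was also called higher in both kinds of vesicle, and Sox7 in sorted cells.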
